A study of Danio rerio with 8 samples.

Results

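The genes lyz, mpx and srgn code for proteins of leukocyte granules, and their transcripts were followed through 4 sorted cell populations of 2 zebrafish tumours. They were found as the probe sets (groups of array probes for a transcript) that carry no other gene symbol in the array's annotation. These are 3 of 8793 genes named on the array, and they are read by 6 of its 15502 probe sets, 1 for lyz, 4 for mpx and 1 for srgn, all described here. The genes were chosen by their values in these populations, set against macrophage genes that peak in another fraction. Their levels and differences are therefore given as a description with no test.

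The tumours were embryonal rhabdomyosarcomas, muscle tumours that arose in CG1-strain fish (outcrossed 4 times) injected at the earliest embryonic stage with activated kras under the rag2 promoter. The injected fish carried GFP under the promoter of myf5, an early myogenic gene, and mCherry under that of mylz2, a gene of fast muscle fibres. Tumours were grown for over 20 days in syngeneic recipients without these reporters and sorted repeatedly by flow cytometry, so a cell of the recipient would carry no reporter of its own. Each tumour gave cells with GFP only, mCherry only, both reporters (double-positive) or neither (double-negative), and each of the 4 populations has 2 arrays, from 1 tumour each (n = 2 tumours). No sample of normal muscle, blood or kidney marrow was analysed here. The deposited signals are on a log scale and are read here as log2. No source used here gives the base of the logarithm, so no folds are printed.

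Granulocytes of the fish are mostly neutrophils, which form in the kidney marrow, circulate in blood and enter tissues. They carry granules loaded with enzymes that act on microbes and matrix. Lyz is the lysozyme that cuts bacterial cell walls, and its promoter is a common neutrophil reporter in zebrafish, although macrophages can make it too. Mpx is the myeloperoxidase of neutrophil granules, which makes hypochlorous acid. Srgn, serglycin, is the proteoglycan core protein that holds proteases inside granules, and in mammals it is made by many kinds of blood cell.

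On the level of whole arrays, the GFP-negative populations of tumour 2 (mCherry-only and double-negative) lay apart from the rest. Their mean rank correlations with the arrays of GFP-positive cells were 0.648 and 0.653, against 0.805 to 0.849 for the remaining 6 arrays. The value of 0.849 was that of double-negative cells of tumour 1, so the arrays of double-negative cells were unlike each other in this measure. The mCherry side of the sort can be read from mylpfa, the current name of mylz2. It was at 10.71 and 10.87 in double-positive, 10.80 and 9.21 in mCherry-only, 7.40 and 6.23 in GFP-only, and 4.58 and 4.73 in double-negative cells (tumour 1 and tumour 2). The GFP side was less clear in myf5, at 5.47 and 5.21 in GFP-only and 3.81 and 6.02 in double-positive cells. It was at 3.28 and 4.34 in mCherry-only and 3.96 and 4.07 in double-negative cells. In tumour 1 the double-positive value of myf5 thus lay below the double-negative value. The lower quartile of all probe sets on an array lay between 3.38 and 3.75 and the upper quartile between 5.66 and 6.01, and these serve below as marks of a low and a high value. Signal over background was not measured.

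The lysozyme gene lyz was high in double-negative cells and low everywhere else. It was at 10.81 in tumour 1 and 10.57 in tumour 2 in double-negative cells. In GFP-only cells it was at 2.23 and 1.97, in double-positive cells at 1.69 and 3.43, and in mCherry-only cells at 1.85 and 3.60. Both double-negative values exceeded at least 99.5% of all probe sets on their arrays, while the 6 other values lay under the lower quartile of theirs. The groups did not overlap, and within each tumour the double-negative array was the highest.

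The double-negative mean of lyz, 10.69 ± 0.17 (SD, n = 2), exceeded that of GFP-only cells, 2.1 ± 0.18, by 8.59 ± 0.75 (limma's standard error, SE). The difference was 8.13 ± 0.75 against double-positive cells and 7.96 ± 0.75 against mCherry-only cells. Of all 15502 probe sets, lyz had the largest double-negative excess over double-positive and over mCherry-only cells, and the second largest over GFP-only cells. By tumour, the excess over mCherry-only cells was 8.96 in tumour 1 and 6.97 in tumour 2. The order of the populations by mean was double-negative, mCherry-only, double-positive, GFP-only. The last 3 could not be separated by their spread, since their ranges overlapped and mCherry-only minus GFP-only was 0.62 ± 0.75, at -0.38 in tumour 1 and 1.63 in tumour 2. In sorted bulk samples, fewer cells of a type and less RNA per cell cannot be told apart.

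Serglycin, srgn, had a different distribution: it was high in both GFP-negative populations. It was at 8.63 and 9.70 in double-negative and at 8.60 and 9.25 in mCherry-only cells (tumour 1 and tumour 2). In double-positive cells it was at 4.94 and 5.15, and in GFP-only cells at 4.04 and 2.47. All 4 GFP-negative values lay above the upper quartile of their arrays, and no GFP-positive value did.

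For srgn the populations fell into 3 steps by their means. Double-negative and mCherry-only cells, with means of 9.16 ± 0.76 and 8.93 ± 0.46 (SD, n = 2), differed by 0.24 ± 0.67 (SE), and their ranges overlapped. Double-positive cells, at 5.04 ± 0.15, were lower than mCherry-only cells by 3.88 ± 0.67, and GFP-only cells, at 3.25 ± 1.11, were lower than double-positive cells by 1.79 ± 0.67. The ranges at these last 2 steps did not overlap, with 2 arrays on each side. The step from GFP-only to double-positive cells was 0.9 in tumour 1 and 2.68 in tumour 2. By tumour, the excess of double-negative over GFP-only cells was 4.59 and 7.23, and that over mCherry-only cells was 0.03 and 0.45. The srgn difference of double-negative minus GFP-only cells ranked number 11 from the top of all probe sets, and that of double-negative minus mCherry-only cells ranked 5204.

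**Figure D1:**
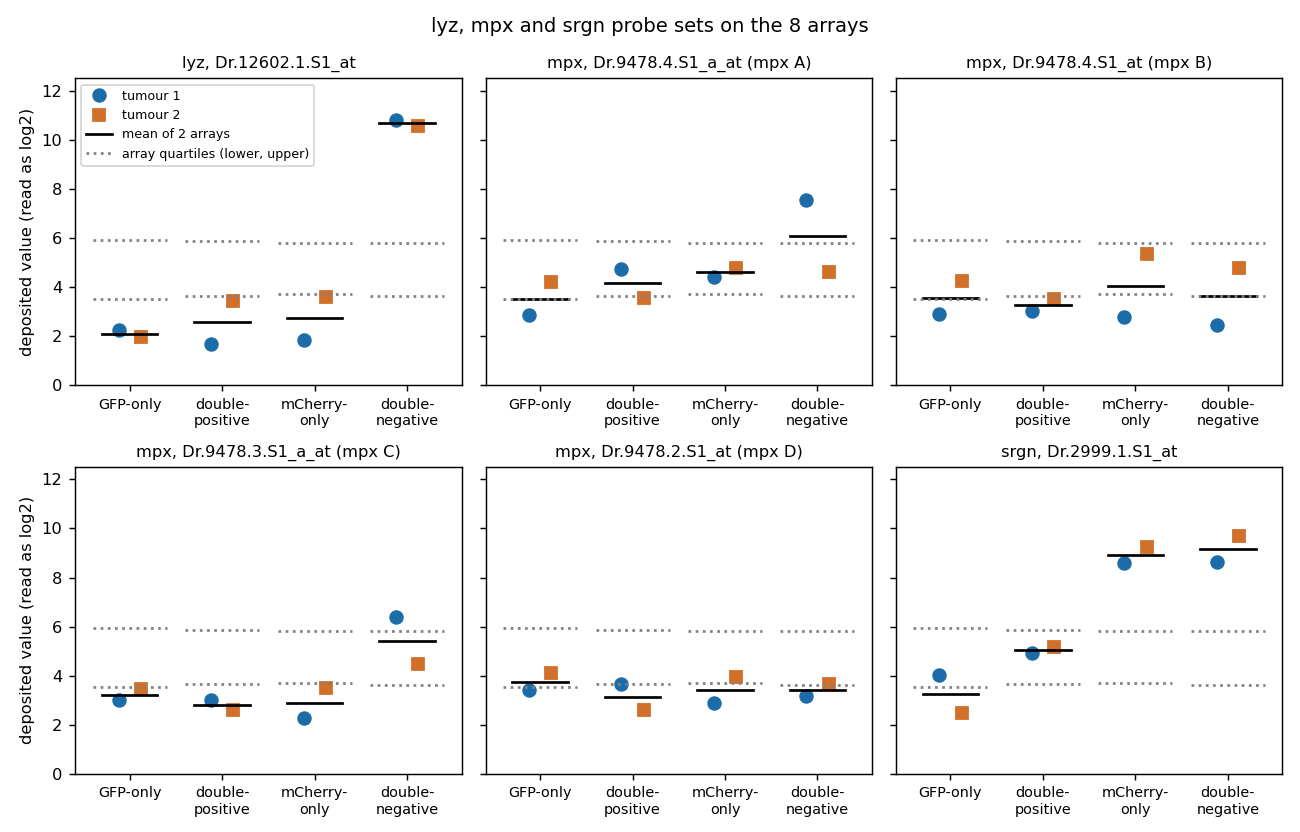
Deposited values, read as log2, of the 6 probe sets of lyz, mpx and srgn in the 4 sorted populations (circles, tumour 1; squares, tumour 2; black lines, means of 2 arrays; dotted lines, lower and upper quartile of all probe sets, averaged over a population's 2 arrays). The lyz values of 10.81 and 10.57 stand in double-negative cells, srgn is at 8.60 or above in both GFP-negative populations, and mpx reaches 7.53 on 1 array by probe set mpx A.

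Myeloperoxidase, mpx, was read by 4 probe sets that disagreed. They are called mpx A (Dr.9478.4.S1_a_at), mpx B (Dr.9478.4.S1_at), mpx C (Dr.9478.3.S1_a_at) and mpx D (Dr.9478.2.S1_at), in order of their mean over the arrays. They lay under the lower quartile on 2, 5, 6 and 4 of the 8 arrays, in that order. Probe set mpx A was at 7.53 in double-negative cells of tumour 1 but at 4.62 in those of tumour 2. It read 4.42 and 4.76 in mCherry-only, 4.73 and 3.55 in double-positive, and 2.85 and 4.20 in GFP-only cells (tumour 1 and tumour 2). The tumour 2 double-negative value thus lay within the range of the mCherry-only cells, and only the tumour 1 value passed the upper quartile of its array.

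Probe set mpx C was also highest in double-negative cells. It was at 6.39 and 4.46 in double-negative cells, and at 2.99 and 3.45 in GFP-only, 3.0 and 2.6 in double-positive, and 2.29 and 3.49 in mCherry-only cells. All 6 values outside double-negative cells were under the lower quartile of their arrays, and the double-negative values were the highest in each tumour. Probe sets mpx B and mpx D did not pass the upper quartile on any of the 8 arrays. In double-negative cells mpx B was at 2.44, below all other arrays, and at 4.79, below the 5.33 of mCherry-only cells of tumour 2. The double-negative values of mpx D, 3.15 and 3.64, lay within the range of the other populations.

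The double-negative excess of mpx over GFP-only cells was 2.55 ± 0.91 (SE) by mpx A, 2.21 ± 0.72 by mpx C, 0.05 ± 0.98 by mpx B and -0.36 ± 0.63 by mpx D. By tumour, the first of these was 4.68 in tumour 1 and 0.42 in tumour 2, so the mean rests on tumour 1. Leaving out the tumour 1 array of double-negative cells gave 1.1, and leaving out that of tumour 2 gave 4.01. Against mCherry-only cells the excess of the same probe set was 1.49 ± 0.91, at 3.11 in tumour 1 and -0.14 in tumour 2 (0.03 if the tumour 1 double-negative array is left out). Probe sets mpx A and mpx C had a Pearson correlation of 0.84 over the 8 arrays, while mpx A and mpx B had -0.19.

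Over the 8 arrays, the Pearson correlation was 0.67 between lyz and mpx A, 0.62 between lyz and srgn, and 0.51 between mpx A and srgn. These are descriptions that bear on no shared granulocyte pattern, since the 3 genes were chosen by their values on these same arrays. The maxima of lyz, mpx A and mpx C lay in double-negative cells of tumour 1. That of srgn, 9.70, lay in double-negative cells of tumour 2. In tumour 1 srgn was about as high in mCherry-only as in double-negative cells (8.60 and 8.63). The maxima of mpx B and mpx D also lay in tumour 2, at 5.33 in mCherry-only and 4.11 in GFP-only cells.

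Genes with the most similar values were sought among the other 8792 named genes by Pearson correlation over the 8 arrays. For lyz the closest was prss1, a trypsin of the exocrine pancreas, with r = 0.989 and values of 8.84 and 8.62 in double-negative cells against 3.54 to 4.52 elsewhere. It was followed by si:ch211-240l19.8 (r = 0.981), the elastase gene cela1.6 (0.972), the chymotrypsin-like gene ctrl (0.966) and rasal3 (0.963), a RAS GTPase-activating protein of blood cells in mammals. In total 40 genes, 0.455% of those compared, had r over 0.9 with lyz, and the median r of all genes was -0.03.

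For srgn the closest gene was wasb (r = 0.991), a regulator of actin assembly in blood cells. It was followed by pik3cg (0.990), the PI3-kinase gamma subunit of leukocytes, the adaptor gene samsn1a (0.985), the G-protein regulator gene rgs13a (0.982) and zgc:64051 (0.981). Among 11 measured pan-leukocyte genes, 10 had r over 0.9 with srgn and 0 with lyz, where 66 of all genes compared (0.751%) had it with srgn. Conversely, among 12 measured exocrine pancreas genes, 9 had r over 0.9 with lyz and 0 with srgn, and among 12 erythroid genes 4 did with lyz and 1 with srgn. Of the 17 other genes of the granulocyte lists described below, 0 had r over 0.9 with any of the 3 members. All these lists were chosen with earlier results of these data known, so the counts are a description. For mpx A only tal1, a blood cell transcription factor, exceeded 0.9 (r = 0.909), followed by the carboxypeptidase gene cpa5 (0.897), lpcat1 (0.885), the vesicle-fusion gene vamp8 (0.884) and hsd3b7 (0.874). In double-negative cells tal1 was at 5.02 and 3.11, so it shared the gap between the tumours.

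**Figure D2:**
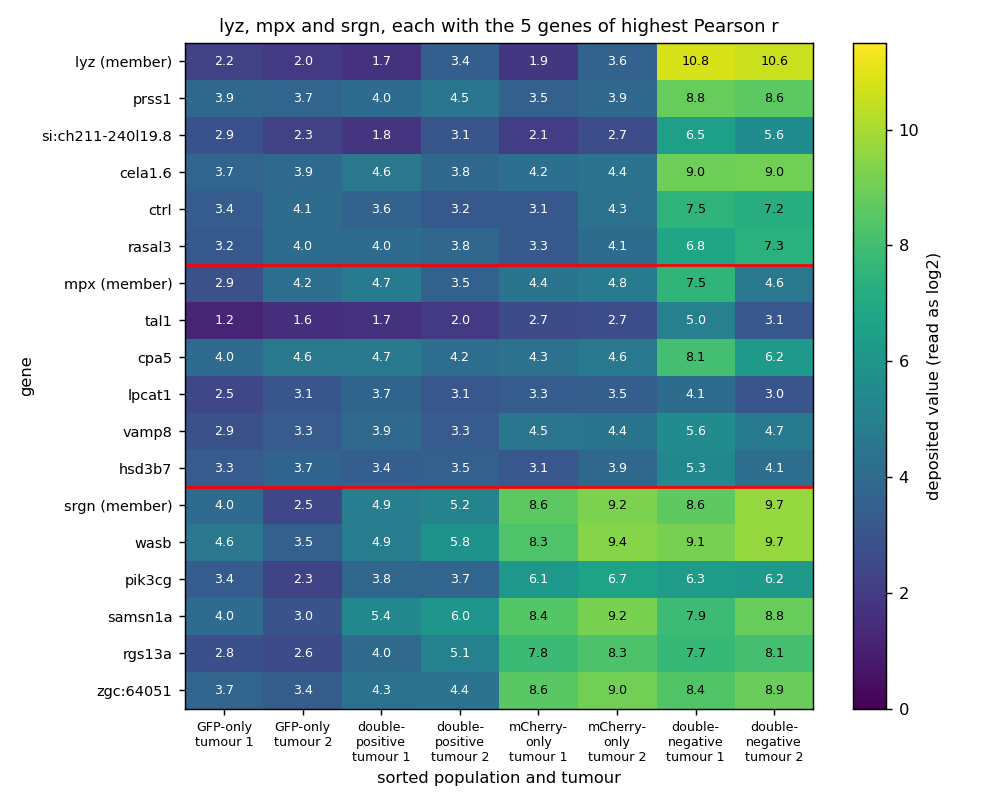
Deposited values, read as log2, of lyz, mpx A and srgn, each above the 5 named genes with the highest Pearson correlation to it, in columns of the 4 populations and 2 tumours. Values are to be read along a row, since levels of different probe sets are not comparable; the lyz block is high only in double-negative cells, the srgn block in mCherry-only and double-negative cells.

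Other genes used by granulocytes were then examined, from lists of regulators and receptors, of granule and leukotriene genes, and of subunits of the phagocyte oxidase. The lists are not limited to genes of granulocytes alone, since they include factors of myeloid cells and an oxidase of phagocytes. These lists, and those of other cell types below, were chosen with earlier results of these data known. Their counts are therefore no independent support. Of 46 listed genes besides the members, 17 were measured, and the receptor genes csf3r, cxcr1 and cxcr2 and the granule gene npsn were not among them. The highest mean lay in double-negative cells for 6 of the 17, in mCherry-only for 5, in double-positive for 4 and in GFP-only for 2. Calls are at a limma adjusted p under 0.05, with adjustment over all probe sets. Between double-negative and GFP-only cells 1 of the 17 was higher and 0 lower, where 0.516% of all probe sets were higher. The median difference was 0.67, against -0.02 over all probe sets. Before adjustment 6 were higher and 0 lower at p under 0.05, against 2.98% and 1.93% of all probe sets. The blocked fit, with the tumour as a factor, called 2 higher (0.761% of all probe sets).

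Against mCherry-only cells, 0 of the 17 genes were called in either direction by limma, where 0.277% of all probe sets were called. Without adjustment, 2 were higher and 3 lower at p under 0.05 (2.46% and 3.72% of all probe sets), and the median was -0.47, against -0.04 over all probe sets. With the tumour as a block, 1 was higher in double-negative cells (0.232%). Against double-positive cells 0 were called (0.542% of all probe sets), with 6 higher and 0 lower before adjustment at p under 0.05 (2.64% and 2.65%), and 1 higher with the block (0.587%). Between mCherry-only and GFP-only cells 3 of 17 were higher (0.839% of all probe sets) and 0 lower (0.0194%), with a median of 0.42 against 0.08. Before adjustment 4 were higher and 1 lower at p under 0.05, where 5.37% and 5.88% of all probe sets were.

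Among the regulators, spi1b and cebpa had their highest values in mCherry-only cells. The gene spi1b, the PU.1 factor of myeloid cells, was at 8.03 and 8.46 in mCherry-only, 6.63 and 4.64 in double-negative, 3.60 and 4.07 in double-positive, and 3.17 and 3.0 in GFP-only cells. It rose by 5.16 ± 0.68 (SE) from GFP-only to mCherry-only cells (limma adjusted p = 0.00665, and 0.0518 to 0.0717 when a GFP-only array or the tumour 2 mCherry-only array is left out). A second spi1b probe set differed by 3.51 (limma adjusted p = 0.0145). The spi1b difference of double-negative minus mCherry-only cells, -2.61 ± 0.68, did not pass (limma adjusted p = 0.262). The C/EBP factor gene cebpa was higher in mCherry-only than in GFP-only cells by 3.74 ± 0.71 (limma adjusted p = 0.0424). That call was lost on leaving out any 1 of the GFP-only, double-positive or mCherry-only arrays (up to 0.266), or the 2 GFP-negative arrays of tumour 2 together (0.0537).

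The gene cebp1, a myeloid C/EBP factor of zebrafish, had its highest values in double-negative cells. It was at 9.61 and 10.03 there, at 7.08 and 9.34 in mCherry-only, 7.56 and 8.01 in double-positive, and 6.34 and 7.95 in GFP-only cells. The double-negative values lay above all others, but the differences of 2.67 ± 0.81 to GFP-only and 1.61 ± 0.81 to mCherry-only cells did not pass (limma adjusted p = 0.501 and 0.878), nor did those of its second probe set, 1.94 and 1.37. The stress-responsive C/EBP gene cebpd was at 8.74 in double-negative cells of tumour 1 and 3.92 in those of tumour 2, and its mean difference to GFP-only cells was -2.60 ± 1.48 (limma adjusted p = 1). A second cebpd probe set differed by -0.74.

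Among granule and leukotriene genes, mmp13a, a collagenase-type matrix metalloproteinase, had its highest values in double-negative cells. It was at 8.62 and 6.29 in double-negative cells and between 2.13 and 4.42 on the 6 other arrays, so the groups did not overlap. Its double-negative excess was 3.65 ± 0.84 (SE) over GFP-only, 4.55 ± 0.84 over double-positive and 4.13 ± 0.84 over mCherry-only cells. The limma adjusted p-values were 0.179, 0.0530 and 0.0997, and with the tumour as a block 0.0232, 0.00615 and 0.0138. The gene alox5ap, which codes for the 5-lipoxygenase activating protein of leukotriene synthesis, was at 5.24 and 3.91 in double-negative cells. It was at 4.09 and 2.87 in mCherry-only cells, which overlapped that range, 2.58 and 1.41 in double-positive, and 1.65 and 2.67 in GFP-only cells. Its difference of 2.41 ± 0.73 between double-negative and GFP-only cells did not pass (limma adjusted p = 0.501). For the other measured genes of this list the ranges of double-negative and GFP-only cells overlapped, and no difference passed. The difference was 0.67 ± 0.87 for the matrix metalloproteinase gene mmp9, at 1.5 in tumour 1 and -0.16 in tumour 2. It was -1.015 ± 1.14 for the annexin gene anxa1a and 1.16 ± 0.95 for padi2. These genes were named after their values were seen.

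Of the 3 measured oxidase subunits, ncf1 and cyba were highest in mCherry-only cells. The third, ncf4, named after its values were seen, had its highest mean in double-positive cells, at 5.61 and 6.37. It was at 5.79 and 6.0 in mCherry-only, 5.47 and 5.47 in GFP-only, and 5.77 and 3.91 in double-negative cells. The cytosolic subunit gene ncf1 was at 8.22 and 7.81 in mCherry-only, 6.48 and 5.18 in double-negative, 3.37 and 3.92 in double-positive, and 2.18 and 2.11 in GFP-only cells. It rose by 5.87 ± 0.60 (SE) from GFP-only to mCherry-only cells (limma adjusted p = 0.00203). In double-negative cells it was higher than in GFP-only cells by 3.69 ± 0.60 (limma adjusted p = 0.0317). That call was kept among the runs without 1 array only when the tumour 2 double-negative array was left out, with adjusted p-values of 0.0508 to 0.230 in the others. The membrane subunit gene cyba was higher in mCherry-only than in GFP-only cells by 3.03 ± 0.67 (limma adjusted p = 0.0944, and 0.0263 with the block), and by 1.42 ± 0.67 in double-negative cells (limma adjusted p = 1).

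**Figure D3:**
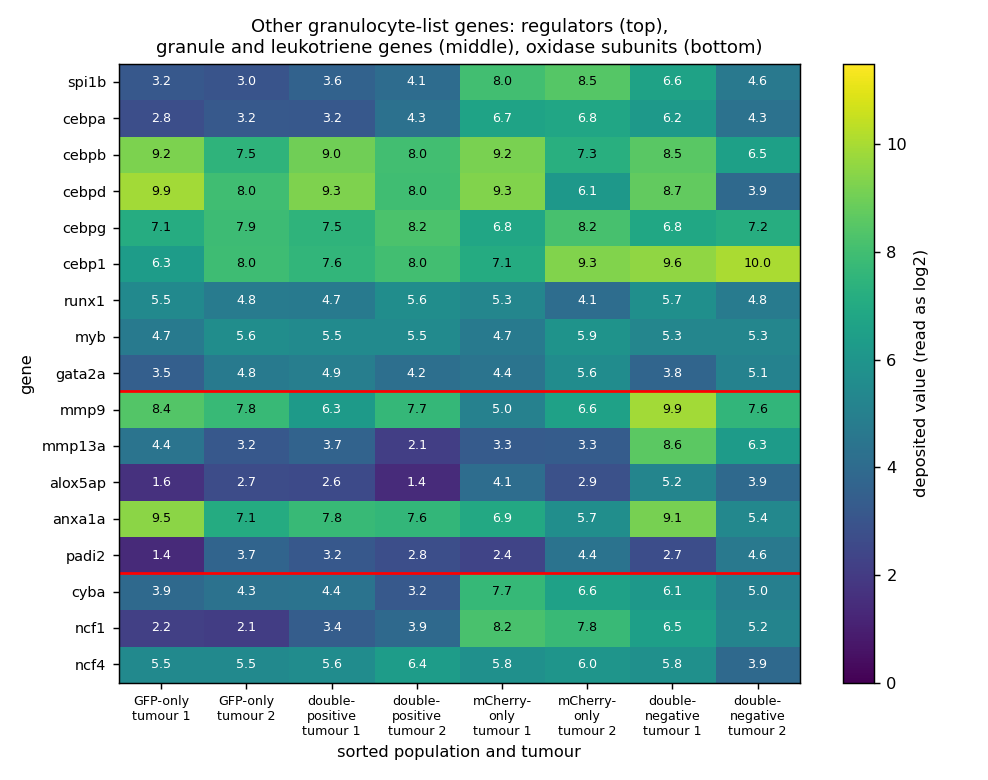
Deposited values, read as log2, of the 17 measured granulocyte-list genes on the 8 arrays, to be read along a row: regulators (top block), granule and leukotriene genes (middle) and phagocyte oxidase subunits (bottom). In double-negative cells mmp13a stands at 8.62 and 6.29 against 4.42 or less elsewhere, while spi1b and ncf1 are highest in mCherry-only cells.

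The double-negative cells of the tumours differed in these genes. Of the 17 list genes, 13 were higher in tumour 1 than in tumour 2, where 7547 of all 15502 probe sets were. The median difference was 1.33, against -0.03 over all probe sets. The gap was 4.82 for cebpd, 2.33 for mmp13a, 1.99 for spi1b and 1.88 for cebpa. For cebpd it was not particular to double-negative cells. That gene was at 9.90 and 7.96 in GFP-only, 9.28 and 7.98 in double-positive, and 9.34 and 6.11 in mCherry-only cells (tumour 1 and tumour 2). In the other populations mmp13a and spi1b were mixed in direction, and cebpa was lower in tumour 1. It went the other way in padi2, a peptidylarginine deiminase gene (-1.9), gata2a, a blood progenitor factor (-1.36), cebp1 (-0.42) and cebpg (-0.32), with padi2, gata2a and cebpg named after their values were seen. Among the members, the gap was 2.91 for mpx A, 1.93 for mpx C, -2.35 for mpx B and -0.49 for mpx D, 0.24 for lyz and -1.07 for srgn. The gap was not particular to the granulocyte lists. Its median was 0.75 in the macrophage genes (12 of 16 higher in tumour 1) and 1.76 in the muscle identity genes (9 of 13). In the pan-leukocyte genes it was -0.62 (2 of 11). Each side is 1 array, so these gaps have no replicate and were not tested, and the tumour 2 array is 1 of the 2 that lay apart.

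The macrophage genes that served as the contrast had their maximum in mCherry-only cells: all 16 measured had their highest mean there. The list held 33 genes, and mpeg1.1 and mfap4 were not among those measured. The margin was small for ctsl.1, a cathepsin gene named after its values were seen. It was at 5.57 and 5.29 in mCherry-only and at 5.01 and 5.06 in double-negative cells. The scavenger receptor gene marco was at 9.91 and 9.67 in mCherry-only, 6.10 and 4.38 in double-negative, 5.99 and 5.28 in double-positive, and 2.43 and 2.82 in GFP-only cells. The complement gene c1qc was at 8.89 and 8.71 in mCherry-only and at 5.18 and 3.65 in double-negative cells. Where marco differed by -4.55 ± 0.66 (SE) between double-negative and mCherry-only cells, srgn differed by 0.24 and lyz by 7.96. The largest double-negative minus mCherry-only differences in the list were -5.35 for the chemokine gene ccl34b.1, -4.64 for lgals3bp.1, a secreted scavenger-domain protein, -4.55 for marco, -4.38 for c1qc, -3.94 for the apolipoprotein gene apoeb and -3.73 for csf1ra, the receptor of macrophage growth factor.

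Over the list, 8 of 16 measured macrophage genes were lower in double-negative than in mCherry-only cells and 0 higher, where 0.187% of all probe sets were lower, and the median difference was -3.43. This contrast entered the choice of the genes, so the count is descriptive. Runs left out any 1 double-positive or mCherry-only array, the tumour 2 double-negative array, or the 2 GFP-negative arrays of tumour 2 together. The differences of marco in these runs lay between -4.67 and -3.69. The count fell in them, also without a double-positive array, which is no part of the contrast. The share of all probe sets called in these runs is not given here, so the fall does not show a smaller difference. The macrophage gene mean level in double-negative cells, 6.10 and 5.55, lay near that in double-positive cells, 5.69 and 5.73, with a median difference of 0.15. It was above that in GFP-only cells, 4.41 in each tumour. In that comparison the median difference was 1.13, against -0.02 over all probe sets and 0.67 in the granulocyte lists. Before adjustment 7 of 16 were higher and 0 lower at p under 0.05, against 2.98% and 1.93% of all probe sets. After adjustment 1 of 16 was higher, where 0.516% of all probe sets were. That gene was ctss2.2, a cathepsin gene, at 3.06 ± 0.52 (limma adjusted p = 0.0377). A second ctss2.2 probe set differed by 2.26 (limma adjusted p = 0.322). The count was 2 in the blocked fit (0.761% of all probe sets), and it fell without any 1 array.

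**Figure D4:**
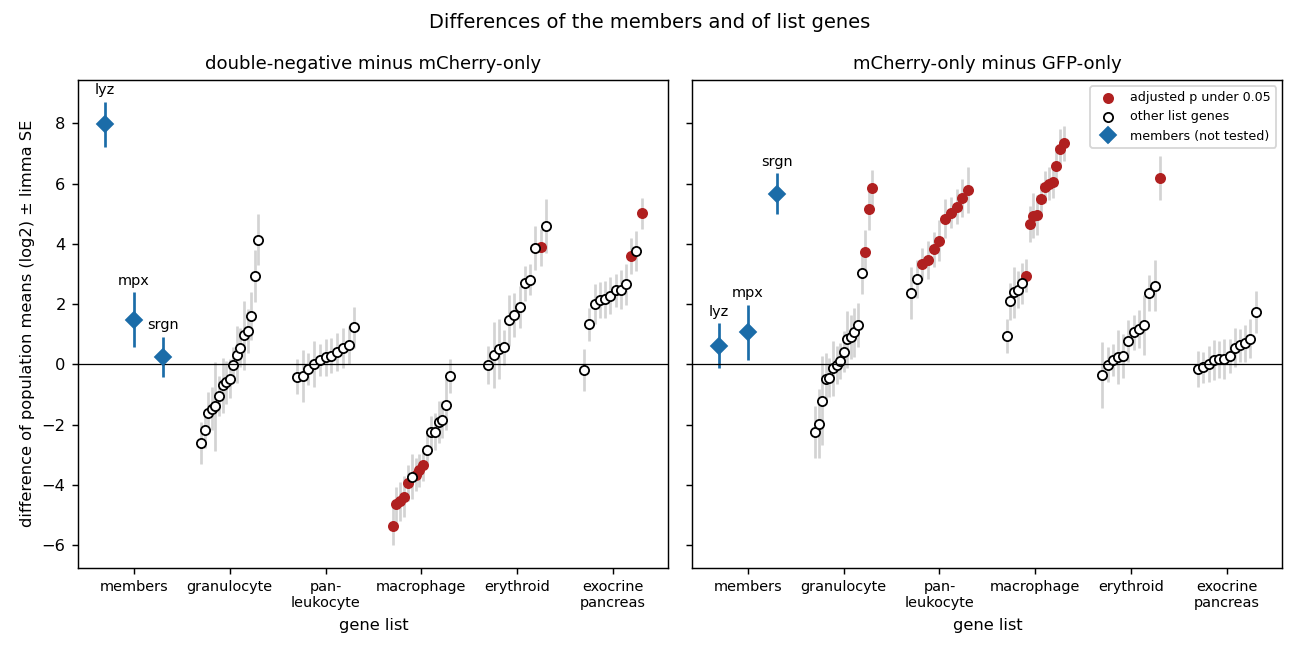
Differences of population means on the log2 scale, with limma's SE, for lyz, mpx A and srgn (diamonds, not tested) and for the measured genes of 5 lists (filled, limma adjusted p under 0.05; open, other genes), between double-negative and mCherry-only cells (left) and between mCherry-only and GFP-only cells (right). On the left lyz stands at 7.96 and srgn at 0.24 while 0 of 16 macrophage genes lie above 0; on the right srgn stands at 5.67 beside the pan-leukocyte and macrophage genes, and lyz at 0.62. The comparisons share the mCherry-only arrays.

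The genes of the pan-leukocyte list moved with srgn. That list was chosen with earlier results of these data known, so its counts are no independent support. Of 11 measured pan-leukocyte genes, 10 were higher in double-negative than in GFP-only cells (0.516% of all probe sets) and 9 in mCherry-only than in GFP-only cells (0.839%). Against double-positive cells 6 were higher in double-negative cells (0.303% of all probe sets). The blocked fit called 10 (0.587%). Between double-negative and mCherry-only cells 0 of 11 were called by limma, where 0.277% of all probe sets were. At an unadjusted p under 0.05, 0 were higher and 0 lower, against 2.46% and 3.72% of all probe sets. Counts of 0 among 11 genes are near these shares, so they do not show equal levels. The actin regulator gene coro1a was higher than in GFP-only cells by 5.93 ± 0.63 (SE) in double-negative and by 5.51 ± 0.63 in mCherry-only cells (limma adjusted p = 0.00417 and 0.00292), and lcp1, the leukocyte plastin, by 5.80 ± 0.76 and 5.78 ± 0.76 (limma adjusted p = 0.00927 and 0.00637). The lcp1 calls were lost when the tumour 2 GFP-only array was left out (0.109 and 0.0723), and the second also when the tumour 2 mCherry-only array was (0.0680). A second coro1a probe set differed by only 0.61 and -0.55.

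The mean levels of the erythroid list, the exocrine pancreas list and the mast cell and eosinophil list were also highest in double-negative cells. The mean level of the 12 measured erythroid genes was 6.29 and 6.93 in double-negative cells and between 2.99 and 4.95 on the other arrays. That of the 12 exocrine pancreas genes was 6.61 and 6.2, against 3.12 to 3.99. For the 4 measured mast cell and eosinophil genes it was 4.81 and 4.65, against 3.05 to 3.95. Only 2 of these 4 had their highest mean in double-negative cells. The gene gata2a had it in mCherry-only cells. The gene kita, named after its values were seen, was at 2.54 and 1.97 in double-negative and 2.41 and 2.87 in double-positive cells. The globin gene hbaa1 was higher in double-negative than in GFP-only cells by 7.82 ± 0.73 (SE, limma adjusted p = 0.00417). Unlike lyz, it was also at 9.03 and 10.96 in mCherry-only cells, higher than in GFP-only cells by 6.19 ± 0.73 (limma adjusted p = 0.00351). The nucleotidase-like gene nt5c2l1 was at 7.55 and 8.49 in double-negative, 3.67 and 4.6 in mCherry-only, and 2.13 or less in GFP-positive cells, and its excess over GFP-only cells was 6.25 ± 0.60 (limma adjusted p = 0.00417). The erythroid spectrin gene sptb was highest in double-positive cells, at 6.7 and 6.3, and cahz, a red cell carbonic anhydrase, was at 7.3 in mCherry-only cells of tumour 2, beside 7.08 and 7.54 in double-negative cells; both were named after their values were seen. The trypsin gene prss1 was higher by 4.92 ± 0.52 (limma adjusted p = 0.00417, and 0.0580 if the tumour 2 GFP-only array is left out), and the chymotrypsin gene ctrb.1 by 3.92 ± 0.66 (limma adjusted p = 0.0372). The ctrb.1 call was lost on leaving out any 1 of the GFP-only, mCherry-only or double-negative arrays (up to 0.258), or the 2 GFP-negative arrays of tumour 2 together (0.0693).

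By list, 5 of 12 erythroid and 4 of 12 pancreas genes were higher in double-negative than in GFP-only cells (0.516% of all probe sets), and 1 and 2 were higher than in mCherry-only cells (0.0903% of all probe sets). With the tumour as a block, the erythroid count against mCherry-only cells was 5 (0.232%). Of 4 measured mast cell and eosinophil genes, 0 were called by limma in any of the 4 comparisons, with 2 higher in double-negative than in GFP-only cells at an unadjusted p under 0.05 (2.98% of all probe sets). These were cpa5, a carboxypeptidase also on the pancreas list, at 2.83 ± 0.68 (limma adjusted p = 0.202), and gata1a, also on the erythroid list, at 2.68 ± 0.69 (limma adjusted p = 0.271). The mean level of the 13 muscle identity genes was lowest in double-negative cells, at 5.98 and 4.11, against 6.22 to 7.6 elsewhere. Their double-negative minus GFP-only differences reached -3.38 ± 1.30 in cdh15, the muscle cadherin, and -3.33 ± 1.02 in actc1b, a muscle actin, and did not pass (limma adjusted p = 0.876 and 0.517), with 0 of 13 called. Before adjustment 5 were lower and 0 higher at p under 0.05, against 1.93% and 2.98% of all probe sets. Against double-positive cells 2 of 13 were lower (0.239% of all probe sets) and against mCherry-only cells 1 was (0.187%). At an unadjusted p under 0.05, 5 were lower in each of these 2 comparisons (2.65% and 3.72% of all probe sets). The gene mylpfa, whose promoter drove the mCherry of the sort, was called in both, at -6.13 ± 0.67 and -5.35 ± 0.67 (limma adjusted p = 0.00499 and 0.0122). Double-negative cells were sorted for lacking this mCherry, so the sort fixed that outcome and the mylpfa calls are no test. The 1 call against mCherry-only cells was mylpfa, so that count says nothing further about muscle genes. The gene actc1b was called against double-positive cells at -5.59 ± 1.02 (limma adjusted p = 0.0491). These calls were lost in some of the runs without 1 array, with adjusted p-values up to 0.128 for mylpfa and 0.493 for actc1b. A second mylpfa probe set differed by -6.83 and -5.83 and was called in neither comparison (limma adjusted p = 0.0578 and 0.135). Against double-positive cells a second actc1b probe set differed by -5.51 (limma adjusted p = 0.0452). Further actc1b probe sets differed by -1.18 and 0.49 and did not pass (limma adjusted p = 0.994 and 0.999). No gene of these lists was at 0 on any array. The part of these cell types, and of the tumour 2 arrays, in the lyz, mpx and srgn values was not tested.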

How the data were processed

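Total RNA of sorted cells was amplified and biotin-labelled with the Ovation Pico WTA System, per the labels' protocols. The authors deposited log-scale values, read here as log2, for 15502 probe sets on 8 arrays. They run from 0 to 12.79. Sources used here do not give the summary method, the scaling or the logarithm's base. Precision is limited by the number of arrays. Values were used as deposited.

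Probe sets were named from the array's annotation: 10795 had 1 gene symbol, 135 several and 4572 none. For 1 probe set the symbol was updated through RefSeq identifiers. A gene is represented by its probe set with the highest mean over the 8 arrays. Close gene copies such as globins and trypsins may share probes.

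The 4 population means were estimated from all 8 arrays in limma 3.58.1 (lmFit and eBayes, R 4.3.3), with 4 residual degrees of freedom (prior 6.07). Tests were two-sided, and Benjamini-Hochberg adjustment ran over all probe sets, separately in each of 4 comparisons, at a threshold of 0.05. The spread behind a p-value is that between same-population arrays, pooled over populations. The fit was run on simulated data with independent errors. These held no pairing by tumour, so the run does not bear on the pairing described next. Arrays of a tumour number come from the same tumour, which pairs the populations. The correlation of same-numbered arrays' deviations from their population means ran from -0.0291 (double-positive with double-negative) to 0.492 (GFP-only with double-negative), and a fit blocked on the tumour was an alternative.

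The members and gene lists were chosen with earlier results of these data known, so they are no independent support. The named list genes are those called in a comparison or with the largest differences, and the nearest 5 genes by correlation for each member. Some other list genes were named after their values were seen, as stated there. Alternatives were the block, only the arrays compared, quantile normalization, median centring, leaving out the dimmest 30% of probe sets, the mean of a gene's probe sets, each array left out, and the pair of tumour 2 arrays left out. No sequences are shown.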

Additional observations from a re-analysis of the deposited data

How the results depend on the processing

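With 2 arrays per population, the list counts change with single arrays. The share of all probe sets called in each run is not given in this section. A lower count therefore does not by itself show a smaller difference. Without 1 array, the double-negative excess of lyz ran from 8.46 to 8.72 over GFP-only, 7.26 to 9 over double-positive and 7.09 to 8.84 over mCherry-only cells. That of srgn ran from 5.12 to 6.70, 3.59 to 4.65 and -0.29 to 0.78, and that of mpx A from 1.1 to 4.01, 0.48 to 3.39 and 0.03 to 2.94. The mCherry-only minus GFP-only difference ran from -0.25 to 1.5 for lyz, 0.39 to 1.74 for mpx A and 4.88 to 6.46 for srgn. Without the pair of tumour 2 arrays, double-negative minus mCherry-only was 8.96 for lyz and 3.11 for mpx A. With the mean of its 4 probe sets, the mpx difference fell to 1.11 in double-negative minus GFP-only cells, 1.29 minus double-positive and 0.89 minus mCherry-only cells, and to 0.22 in mCherry-only minus GFP-only cells.

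Granulocyte-list counts without 1 array ran from 0 to 1 for double-negative against GFP-only, double-positive and mCherry-only cells each, and from 1 to 3 for mCherry-only against GFP-only cells. The 1 gene called against mCherry-only cells, in the run without double-negative cells of tumour 1, was lower in double-negative cells. Macrophage-list counts were 0 in each run for double-negative against GFP-only and double-positive cells, and ran from 0 to 7 against mCherry-only cells and from 8 to 11 in mCherry-only against GFP-only cells. With the tumour as a replicate block, the granulocyte count was 2, 1 and 1 in the 3 double-negative comparisons, and the macrophage count was 2 against GFP-only cells. The block moved no other granulocyte or macrophage count by over 1.5 times. With only the arrays compared, the granulocyte count was 0 against GFP-only cells, and the macrophage count was 0 against GFP-only and 0 against mCherry-only cells. Against double-positive cells the granulocyte count was 1 with quantile normalization and 1 without the dimmest 30% of probe sets, where the macrophage count against GFP-only cells was 2. With the mean of a gene's probe sets that macrophage count was 0. Without the pair of tumour 2 arrays, the granulocyte count was 2 against GFP-only and 1 against double-positive cells, and the macrophage count 0 against GFP-only and 0 against mCherry-only cells. The causes were not tested.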
